A study of Mus musculus with 30 samples.

Results

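The level of Pced1b divided 30 mouse mammary tumours into 10 Pced1b-low and 20 Pced1b-high tumours, and every other gene was compared between these classes, on chromosome 15, where Pced1b lies, and on the other chromosomes. A tumour was placed in the low class when its Pced1b value was under a threshold that lies between 9.461 and 13.143 RPKM (reads per kilobase of transcript, scaled to the reads mapped in the library) and in the high class otherwise. The tumours were induced by the polyoma middle T antigen (PyMT), a viral oncoprotein that drives mammary carcinoma, in backcross animals: mice of a cross of MOLF with PyMT animals were crossed again with FVB. Poly-A RNA from 1 tumour library per animal was sequenced. All 30 animals therefore share the transgene and the cross, and the classes were set by a measured value and not by a label. The promoter that drives the transgene, the animals' ages and any treatment are not given in the labels, and genotypes were not analysed here.

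Pced1b encodes a predicted PC-esterase of the SGNH hydrolase family whose substrate is poorly known. MOLF is a wild-derived strain of Mus musculus molossinus and FVB is a laboratory strain, so their chromosomes differ at many sites. In a backcross, long stretches of each chromosome are inherited together from the F1 parent. A gene on the same chromosome is called here a cis gene and a gene on another chromosome a trans gene, as names for position alone.

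Pced1b was 3.01 RPKM at the lowest, 6.02 at the median and 9.46 at the highest in the low class, against 13.1, 33.8 and 57.4 RPKM in the high class. These values chose the classes and carry no test. The tumour just inside the threshold came from animal 4150, with 9.461 RPKM, and the tumour just outside it from animal 4378, with 13.143 RPKM. The next tumour upwards, from animal 4638, had 25.178 RPKM, so the widest step between neighbouring Pced1b levels, 1.92 times, lay above animal 4378 and not at the threshold. Mean Pced1b was 6.05 ± 1.95 RPKM (SD, n = 10) in the low class and 35.3 ± 9.88 RPKM (SD, n = 20) in the high class.

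Amigo2, which encodes a leucine-rich repeat adhesion protein of the cell surface, lies on the opposite strand with its 5′ end overlapping that of Pced1b. The strand setting of the counting is not given in the sources used here, so reads of the overlap cannot be told apart and Amigo2 was not tested. It was 0.469, 1.58 and 2.50 RPKM at the lowest, median and highest in the low class, and 0.994, 8.39 and 13.4 RPKM in the high class. The 0.994 RPKM belonged to animal 4378, and the next lowest high tumour had 3.84 RPKM, above all 10 low tumours.

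**Figure D1:**
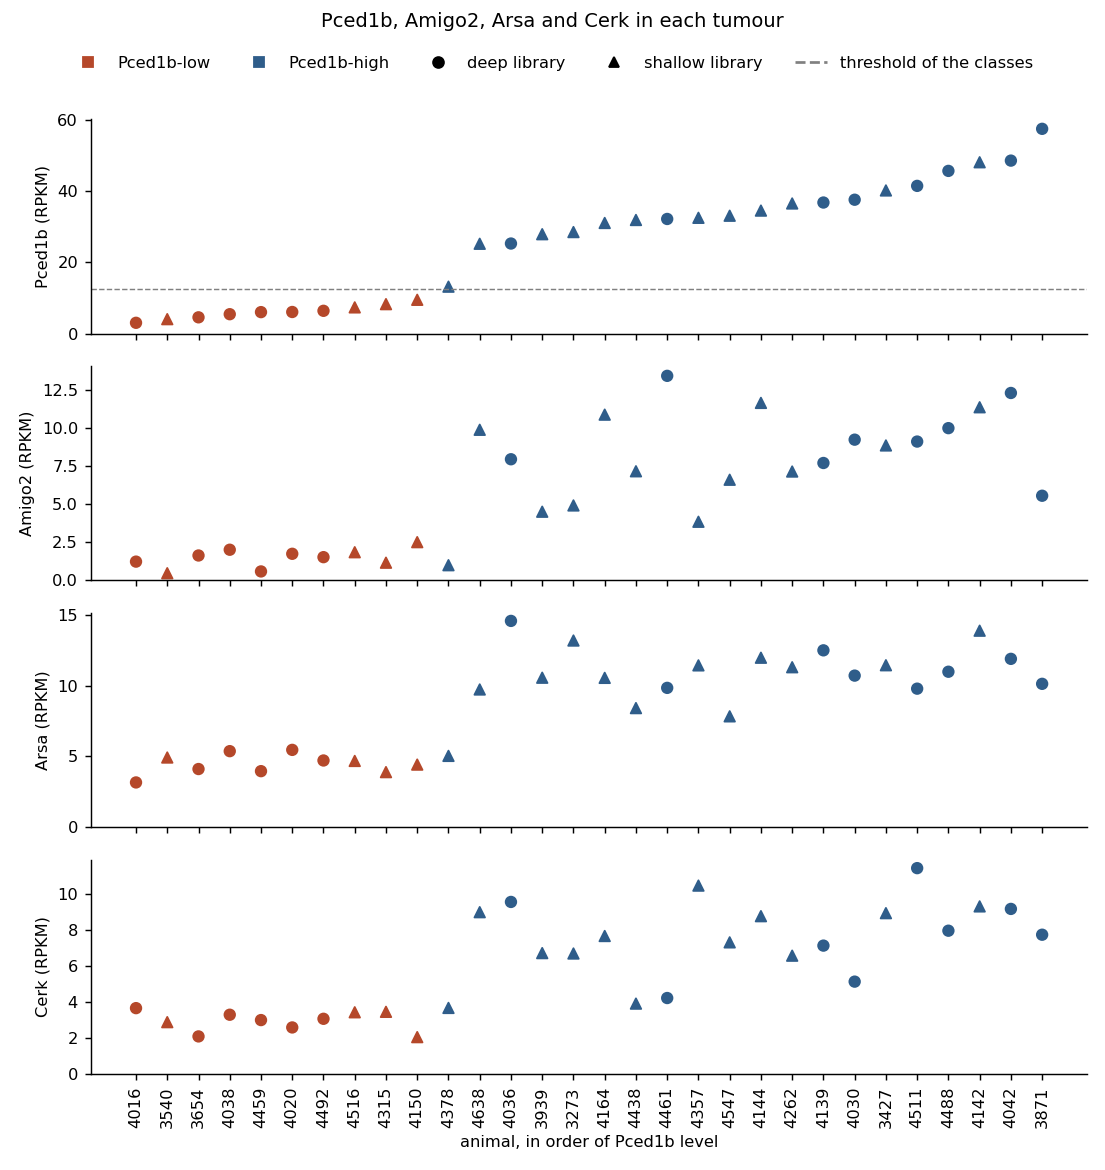
Levels of Pced1b, Amigo2, Arsa and Cerk in RPKM (vertical axes) in each of the 30 tumours, ordered by Pced1b level (horizontal axis), with the class in colour, the depth class as the marker shape and the threshold as a dashed line. Animal 4378, the first high tumour, had 5.04 RPKM of Arsa and 3.68 RPKM of Cerk, within or just above the range of the low tumours.

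Library depth, estimated from the size of the smallest steps between RPKM values, fell into 14 deep libraries of 117 to 197 M reads and 16 shallow libraries of 42.7 to 62.0 M reads. The low class held 6 deep and 4 shallow libraries, and the high class 8 deep and 12 shallow libraries. Mean insert size was 240 ± 21.9 bases (SD, n = 10) in the low class and 252 ± 17.2 bases (SD, n = 20) in the high class. Luminal epithelial keratins were high in both classes: Krt8 was 485 ± 107 RPKM (SD, n = 10) in low and 531 ± 115 RPKM (SD, n = 20) in high tumours. Krt18 went the other way, with 582 ± 124 RPKM in low and 491 ± 94.4 RPKM in high tumours. Krt19 was 136 ± 83.8 RPKM in low and 163 ± 91.9 RPKM in high tumours. Animal 4378 had the highest T cell and B cell marker scores of the 30 tumours, 2.61 and 3.10 (the mean of the markers' log2 values, each in SD units from its mean over the tumours), followed by animal 4142 with 2.18 and 2.54. Its milk secretory score, 2.28, was also the highest, followed by animal 3540 with 2.03. So was its interferon response score, 2.18, followed by animal 4036 with 2.02. Animal 4150 of the low class also stood apart: it was the extreme low tumour by a wide gap for 6 of the 77 genes examined for this, among them Chkb with 83.3 RPKM beside 40.3 in the next low tumour. The part of depth, insert size and immune cells in the differences below was not tested except where a value is given. In bulk tumour RNA, fewer cells of a type and less RNA per cell cannot be told apart.

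Of 13609 genes whose mean level reached 1 RPKM, 3 differed between the classes (0.022%), 2 lower (0.0147%) and 1 higher (0.00735%) in Pced1b-low tumours (limma on log2(RPKM + 1), two-sided, Benjamini-Hochberg adjusted p under 0.05 over all genes tested). The 2 lower genes, Arsa and Cerk, both lie on chromosome 15, and the higher gene, Hnrnph2, lies on chromosome X. On chromosome 15, 2 of 557 tested genes passed (0.359%), and on the other chromosomes 1 of 13052 passed (0.00766%). At an unadjusted p under 0.05 the counts were 1548 over all genes (11.4%), 83 of 557 on chromosome 15 (14.9%) and 1465 of 13052 elsewhere (11.2%). Among single chromosomes this share ranged from 7.38% on chromosome 19 to 16.4% on chromosome 13. Only chromosome 13 lay above chromosome 15. Genes lower in low tumours made up 7.9% of chromosome 15 and 4.31% elsewhere, and higher genes 7% and 6.91%. The median difference of low minus high was -0.02 on chromosome 15 and 0.01 over all genes on the log2(RPKM + 1) scale.

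Arsa encodes arylsulfatase A, the lysosomal enzyme that removes the sulfate group from sulfatide and whose loss in humans causes metachromatic leukodystrophy. Arsa was 3.17, 4.56 and 5.47 RPKM at the lowest, median and highest in low tumours and 5.04, 10.9 and 14.6 RPKM in high tumours. The classes overlapped through 1 tumour: animal 4378 was the lowest high tumour, with 8 low tumours below it and 2 above, and the next lowest high tumour had 7.84 RPKM. The mean was 4.47 ± 0.711 RPKM (SD, n = 10) against 10.8 ± 2.15 RPKM (SD, n = 20), which is 2.41 times higher in high tumours. The difference was -1.09 ± 0.10 (SE) on the log2(RPKM + 1) scale, with adjusted p = 9.21e-08 by limma. Since that scale adds 1 to each value, it understates the ratio of genes at these low levels. Arsa was named for this comparison with earlier results of these data known, so its p is not that of a gene picked blind.

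Arsa was lower in Pced1b-low tumours in both depth classes. In deep libraries its mean was 4.47 RPKM in 6 low and 11.3 RPKM in 8 high tumours, a difference of -1.18 on the log2 scale with a limma adjusted p of 0.00046. In shallow libraries the means were 4.48 RPKM in 4 low and 10.5 RPKM in 12 high tumours, a difference of -1.03 that did not pass (adjusted p = 0.215 by limma). The test of the difference between the depth classes gave an adjusted p of 0.888 by limma. The call held without each tumour in turn, with differences between -1.14 and -1.05 and adjusted p between 8.82e-11 and 5.96e-07, and over the 14 other settings adjusted p ran from 2.48e-11 to 0.215.

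Cerk encodes ceramide kinase, which makes ceramide 1-phosphate from ceramide. It was 2.06, 3.04 and 3.67 RPKM at the lowest, median and highest in low tumours and 3.68, 7.72 and 11.5 RPKM in high tumours. Every low tumour lay below every high tumour, and Cerk was the only 1 of the 13609 tested genes with that separation (0.00735%). The gap was narrow: the highest low tumour had 3.668 RPKM, animal 4378 had 3.679 RPKM and the next high tumour 3.92 RPKM. The mean was 2.96 ± 0.56 RPKM (SD, n = 10) against 7.58 ± 2.14 RPKM (SD, n = 20), 2.56 times higher in high tumours, and the difference was -1.08 ± 0.13 (SE) with adjusted p = 1.82e-05 by limma. Within depth classes the difference was -1.12 in deep libraries (adjusted p = 0.0758) and -1.06 in shallow libraries (adjusted p = 0.215), neither of which passed in limma, while it passed in the other 12 settings and without each tumour in turn (adjusted p between 1.51e-06 and 9.90e-05).

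The upstream sequences of the 2 passing chromosome 15 genes are shown because these genes were low in the same tumours. Each is the 250 bases before the annotated start in RefSeq, on the reference strain's build GRCm38.p6 and given on the gene's strand, Arsa from chr15:89477425-89477674 and Cerk from chr15:86186142-86186391, both on the minus strand. Capitals mark an E-box (CACGTG) or a GC box (GGGCGG), searched on both strands. The reference strain is neither MOLF nor FVB, so the sequences show none of the differences between the parents. Both windows hold annotated exon sequence of other genes, C230037L18Rik at Arsa and Gm15569 at Cerk, and the Arsa window touches an exon of Arsa itself.
Arsa: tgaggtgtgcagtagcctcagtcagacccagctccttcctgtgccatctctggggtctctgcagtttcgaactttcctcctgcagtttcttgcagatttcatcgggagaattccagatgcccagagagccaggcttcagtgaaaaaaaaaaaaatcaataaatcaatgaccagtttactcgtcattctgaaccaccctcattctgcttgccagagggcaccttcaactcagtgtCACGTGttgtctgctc
Cerk: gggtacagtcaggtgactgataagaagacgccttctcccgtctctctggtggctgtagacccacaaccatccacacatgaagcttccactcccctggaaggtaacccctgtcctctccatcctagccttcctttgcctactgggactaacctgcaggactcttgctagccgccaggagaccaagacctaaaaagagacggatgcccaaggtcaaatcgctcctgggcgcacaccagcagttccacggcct

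The Arsa sequence held 1 E-box, which starts 16 bases before the annotated start, and no GC box. The Cerk sequence held neither. An E-box occurs in 6.02% and a GC box in 32.7% of the 32851 RefSeq upstream sequences of this length. Neither sequence held CCAAT, found in 33.8%, or TATAAA, found in 12.4%, on either strand. The Arsa sequence had 4 CpG and 48.4% G and C bases, and the Cerk sequence 7 CpG and 56.4%, beside medians of 6 CpG and 52.4% over all upstream sequences. A match of letters is a description of the window and not a binding site.

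Cerk and Arsa lay on the same side of Pced1b in the gene order of chromosome 15, with 49 tested genes between Cerk and Pced1b and 21 between Arsa and Pced1b. Of the 21 genes between Arsa and Pced1b, 0 passed in limma and 6 had an unadjusted p under 0.05. Among the 25 tested genes next to Pced1b on that side, Arsa included, 8 had an unadjusted p under 0.05 (32%), and among the 25 on the other side 1 did (4%). On the side of Arsa the share was 16% in the next 25 genes, which hold Cerk. It was 16% in the following 50 and 13.8% in the remaining 327. On the other side it was 20% in both the next 25 and the following 50 genes, and 6.67% in the last 30. With distance the share thus did not rise on the side of Arsa, and it changed in no order on the other side. No trend was tested. Over the whole chromosome, 44 genes were lower (7.9%) and 39 higher (7%) in low tumours at this unadjusted level, beside 4.46% lower and 6.91% higher over all genes, and 4.31% and 6.91% on the other chromosomes.

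**Figure D2:**
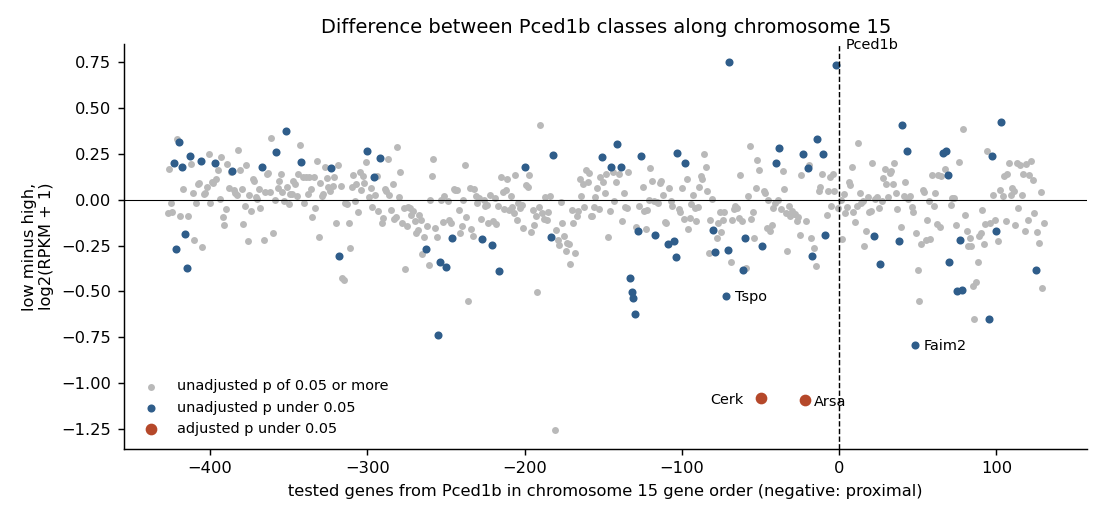
Difference between classes (low minus high, log2(RPKM + 1), vertical axis) for the 557 tested genes of chromosome 15 in gene order, counted from Pced1b at 0 (horizontal axis). Arsa and Cerk, the only genes passing at adjusted p under 0.05, lie near -1.1 on the negative side, among neighbours whose differences scatter around 0.

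The 5 tested genes on each side of Pced1b did not pass. The nearest on the side of Arsa were Slc38a2 and Slc38a1, which encode transporters of glutamine and other neutral amino acids. Slc38a1 was 4.11, 15.5 and 30.3 RPKM at the lowest, median and highest in low tumours and 1.86, 7.99 and 23.9 RPKM in high tumours, with wide overlap, a difference of 0.74 ± 0.30 (SE) and adjusted p = 0.384 by limma. Slc38a2 differed by -0.04, Scaf11, a splicing factor, by 0.05, Arid2, a subunit of a chromatin remodelling complex, by 0.14, and Ano6, a phospholipid scramblase, by -0.04. On the other side Rpap3, a cochaperone, differed by -0.0004, Endou by -0.21, Rapgef3, a cAMP-regulated exchange factor, by 0.03, Slc48a1, a haem transporter, by -0.07, and Hdac7, a histone deacetylase, by -0.04. The smallest adjusted p of these 10 genes was 0.384 by limma. Of 50 tested genes in a wider list around Pced1b, 0 passed and 6 had an unadjusted p under 0.05, 3 in each direction, with a median of 0.02, beside 11.4% of all genes and 14.9% of chromosome 15 at that level, so this count lay near the background. Of 24 tested genes in a list around Arsa, 0 passed and 4 had an unadjusted p under 0.05, Rabl2, Chkb, Mapk11 and Hdac10, each higher in low tumours, with a median of -0.06. Without animal 4150, the unadjusted limma p of Chkb moved from 0.047 to 0.192 and that of Hdac10 from 0.0313 to 0.117.

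Faim2 and Tspo were the next chromosome 15 genes by p and did not pass. Faim2, which encodes an inhibitor of Fas-mediated cell death, was 3.46, 7.82 and 11.8 RPKM at the lowest, median and highest in low tumours and 7.20, 12.2 and 22.6 RPKM in high tumours, with 9 high tumours within the range of the low class. Its difference was -0.79 ± 0.16 (SE), with adjusted p = 0.0873 by limma. It passed when animal 3654, 4036 or 4144 was left out, with adjusted p between 0.036 and 0.0452, in a range of 0.036 to 0.259 over all 30 tumours left out. Tspo, which encodes the translocator protein of the outer mitochondrial membrane, was 39.1, 56.6 and 69.9 RPKM in low and 52.7, 76.6 and 120.8 RPKM in high tumours at the lowest, median and highest. Its difference was -0.52 ± 0.11 (SE), with adjusted p = 0.104 by limma, and 6 high tumours lay within the range of the low class. Tspo passed in limma without animal 4378 (adjusted p = 0.0468, range 0.0468 to 0.275 over all 30), which had the lowest Tspo of the high class.

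A further 14 chromosome 15 genes from the 20 with the smallest p had limma adjusted p between 0.291 and 0.337, and 8 were lower and 6 higher in low tumours by sign. Apobec3, a cytidine deaminase that restricts retroviruses, had means of 37.6 ± 17.9 RPKM (SD, n = 10) in low and 57.5 ± 17 RPKM (SD, n = 20) in high tumours. Its near neighbours Cbx6, a Polycomb chromobox protein, and Npcd had means of 15.6 and 22.6 RPKM and of 3.73 and 5.31 RPKM. Npcd overlaps Cbx6 in the RefSeq annotation, so their reads may be shared. Animal 3654 had the highest value of the low class for all of these neighbours, with 86.5 RPKM of Apobec3 beside 39.3 in the next low tumour. Without animal 3654 the differences of Apobec3, Cbx6 and Npcd went from -0.62 to -0.76, from -0.50 to -0.60 and from -0.43 to -0.53, with limma adjusted p of 0.153, 0.223 and 0.19. Csad, which acts in taurine synthesis, had means of 48.8 RPKM in low and 35.7 RPKM in high tumours, and the xylosyltransferase gene Gxylt1 7.002 and 5.35 RPKM. Differences among the remaining genes were -0.65 for Krt78, -0.50 for Grasp, -0.39 for Slc52a2, -0.34 for Smagp, -0.29 for Cyb5r3, 0.41 for Dnajc22, 0.31 for Card6, 0.27 for Pou6f1 and 0.26 for Wdyhv1.

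Counting animal 4378 as low placed the threshold at the widest step of Pced1b and was chosen after seeing the data. Then 5 of 557 chromosome 15 genes passed (0.898%), all lower in low tumours: Arsa, Cerk, Faim2, Tspo and Cbx6. Over all genes 8 passed (0.0588%). Without the minimum of 1 RPKM, 20451 genes were tested and 4 of the 758 on chromosome 15 passed (0.528%), Mettl7a2 and Adamts20 in addition to Arsa and Cerk. Mettl7a2, a methyltransferase-like gene, was 0.14, 0.164 and 0.263 RPKM at the lowest, median and highest in low tumours and 0.115, 0.932 and 2.36 RPKM in high tumours, with adjusted p = 0.0243 by limma. Of the 20 high tumours 18 lay above every low tumour. Mettl7a2 has close relatives next to it, so its reads may be split among them. Adamts20, an extracellular metalloprotease gene, was 0, 0.0135 and 0.038 RPKM in low and 0.006, 0.1045 and 0.25 RPKM in high tumours, with adjusted p = 0.0458, at levels that rest on few reads. Both were named after their values were seen.

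Among trans genes, Hnrnph2 passed. It encodes an RNA-binding protein of the hnRNP H family that acts in splicing. Hnrnph2 was 28.3, 37.2 and 53.0 RPKM at the lowest, median and highest in low tumours and 22.8, 27.4 and 38.9 RPKM in high tumours. The classes overlapped: 4 low tumours lay above every high tumour, and 8 high tumours lay above the lowest low tumour. The mean was 38.6 ± 6.68 RPKM (SD, n = 10) against 28.2 ± 3.95 RPKM (SD, n = 20), 1.37 times higher in low tumours, with a difference of 0.44 ± 0.08 (SE) and adjusted p = 0.0222 by limma. It lost the call without animal 3654, 4016, 4150, 4315 or 4459, all of the low class, with adjusted p from 0.00288 to 0.0727 over all 30 tumours left out. Within depth classes the difference was 0.45 in deep and 0.43 in shallow libraries, with limma adjusted p of 0.109 and 0.771. With insert size in the model it was not called (adjusted p = 0.089 by limma), in a range of 0.00414 to 0.771 over the 14 other settings.

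Its relative Hnrnph1 on chromosome 11 did not pass: the means were 274.9 ± 80.3 RPKM (SD, n = 10) in low and 218.8 ± 31.5 RPKM (SD, n = 20) in high tumours, with adjusted p = 0.353 by limma. Pced1a, the relative of Pced1b, was 6.61 ± 2.05 RPKM (SD, n = 10) in low and 6.16 ± 1.28 RPKM (SD, n = 20) in high tumours, with adjusted p = 0.799 by limma.

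**Figure D3:**
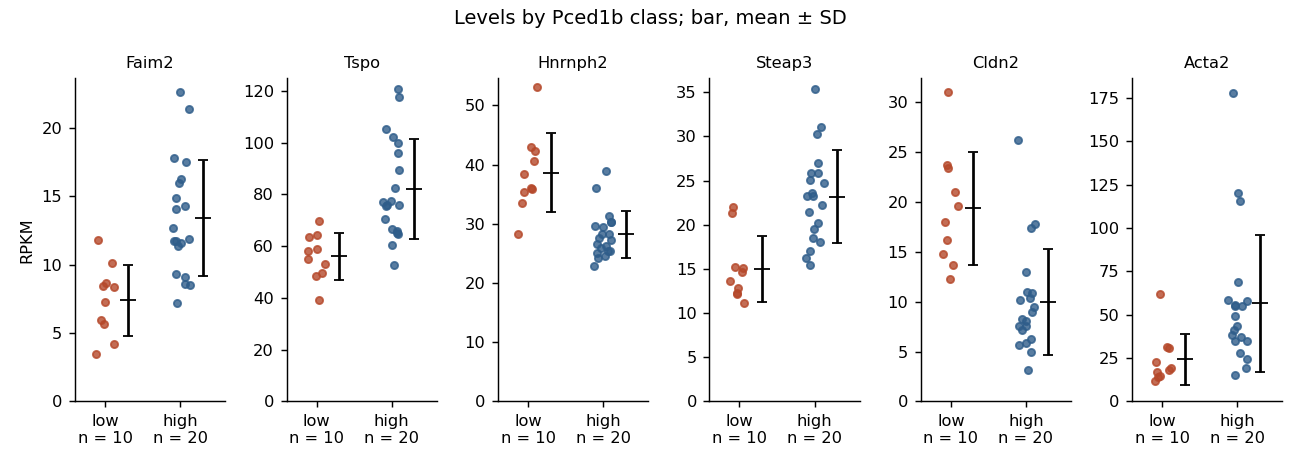
Levels in RPKM (vertical axes, from 0) of 6 genes by Pced1b class (horizontal axes), 1 point per tumour, with the mean and SD beside the points. Hnrnph2 passed the test; the other 5 genes did not, and in all 6 panels the 10 low and 20 high tumours overlap.

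The other trans genes named by their p did not pass. The smallest p among genes lower in low tumours belonged to Steap3, an iron reductase of endosomes. Steap3 was 11.2, 14.1 and 21.97 RPKM at the lowest, median and highest in low and 15.4, 23.2 and 35.3 RPKM in high tumours, with a difference of -0.59 ± 0.12 (SE) and adjusted p = 0.0535 by limma. It passed in 9 of the 30 fits that leave out a tumour, those without animal 3540, 4030, 4144, 4262, 4438, 4461, 4492, 4547 or 4638, with adjusted p from 0.0109 to 0.178 over the 30 fits. Egr3, an immediate early transcription factor, differed by -0.90, the urokinase gene Plau by -0.54 and Tnfaip2 by -0.65, each with adjusted p = 0.104, and each passed without animal 4461 (adjusted p = 0.0447 by limma, the smallest over the 30 tumours left out, with highest values of 0.269, 0.28 and 0.28). Embigin (Emb) differed by -0.62, the lysosomal transporter gene Slc15a3 by -0.29, Abhd8 by -0.36, the histone gene H4c9 by -0.56 and the inhibitor of DNA binding Id4 by -0.45.

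Cldn2 had the smallest p after Hnrnph2 among trans genes higher in low tumours. It encodes a tight junction protein and lies on chromosome X. Cldn2 was 12.3, 18.8 and 30.97 RPKM in low and 3.19, 8.63 and 26.2 RPKM in high tumours at the lowest, median and highest, with a difference of 0.98 ± 0.21 (SE) and adjusted p = 0.0959 by limma. The ranges overlapped, with 4 high tumours above the lowest low tumour, and Cldn2 passed without animal 4036 (adjusted p = 0.0425) or 4144 (adjusted p = 0.0117), in a limma range of 0.0117 to 0.28 over the 30 tumours left out. With the proliferation, stroma, T cell and milk scores as covariates Cldn2 passed (adjusted p = 4.57e-05 by limma), in a range of 4.57e-05 to 0.771 over the 14 other settings, and so did Zfp462 (adjusted p = 0.0411, range 0.0411 to 0.771 over the 13 settings that test it). The Wnt receptor gene Fzd3 differed by 0.40, the epithelial transcription factor gene Ehf by 0.51, Zfp462 by 0.58, Gprasp1 by 0.40, the RNA helicase gene Ddx5 by 0.31, Ociad2 by 0.57, Zfp260 by 0.26 and Eml5 by 0.36. Ehf was abundant in both classes, 126.6 ± 17.8 RPKM (SD, n = 10) in low and 90.4 ± 21.3 RPKM (SD, n = 20) in high tumours, with adjusted p = 0.127, and it passed without animal 4438 (adjusted p = 0.0356 by limma, range 0.0356 to 0.392).

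Gene lists around the functions of Arsa held no other passing member. Their counts at an unadjusted p under 0.05, and those of the lists that follow, stand beside 11.4% of all genes at that level. Of 13 tested sulfatases and their activators, Arsa was the only 1 called. Galns, which acts on keratan and chondroitin sulfate, differed by -0.14 with an unadjusted p of 0.034 and Arsb, a sulfatase for dermatan sulfate, by -0.18. Of 12 tested genes of lysosomal sphingolipid degradation, 0 passed and 2 had an unadjusted p under 0.05, with a median of -0.05: Gm2a, the activator of ganglioside breakdown, differed by -0.29 and the acid sphingomyelinase gene Smpd1 by -0.29. Psap, the precursor of the saposin that presents sulfatide to arylsulfatase A, was 727 ± 130 RPKM (SD, n = 10) in low and 803 ± 130 RPKM (SD, n = 20) in high tumours, with adjusted p = 0.565 by limma. Of 4 tested genes of sulfatide synthesis, 0 passed in limma and 1, Gal3st1, the sulfotransferase that makes sulfatide, had an unadjusted p under 0.05, with a difference of 0.23. Gal3st1 was near the minimum level, 1.31 ± 0.69 RPKM (SD, n = 10) in low and 0.921 ± 0.273 RPKM (SD, n = 20) in high tumours. It reached a mean of 1 RPKM only through the low class, so its p is no support for a difference. Of 6 tested SGNH-type esterases, 0 passed in limma and 1, Casd1, had an unadjusted p under 0.05, with a difference of 0.25 and adjusted p = 0.311.

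Lists of genes clustered on chromosome 15 were not called either. Of 15 tested keratins of its type II cluster, 0 passed in limma and 3 had an unadjusted p under 0.05, with a median of -0.20. Of 9 tested Ly6 genes, 0 passed and 2 had an unadjusted p under 0.05, with a median of -0.15 and the largest difference, -0.73, in Ly6c2. Of 21 tested cancer and growth genes of this chromosome, 0 passed and 2 had an unadjusted p under 0.05, with a median of -0.06. None of the 9 Hoxc genes in the table reached a mean of 1 RPKM.

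**Figure D4:**
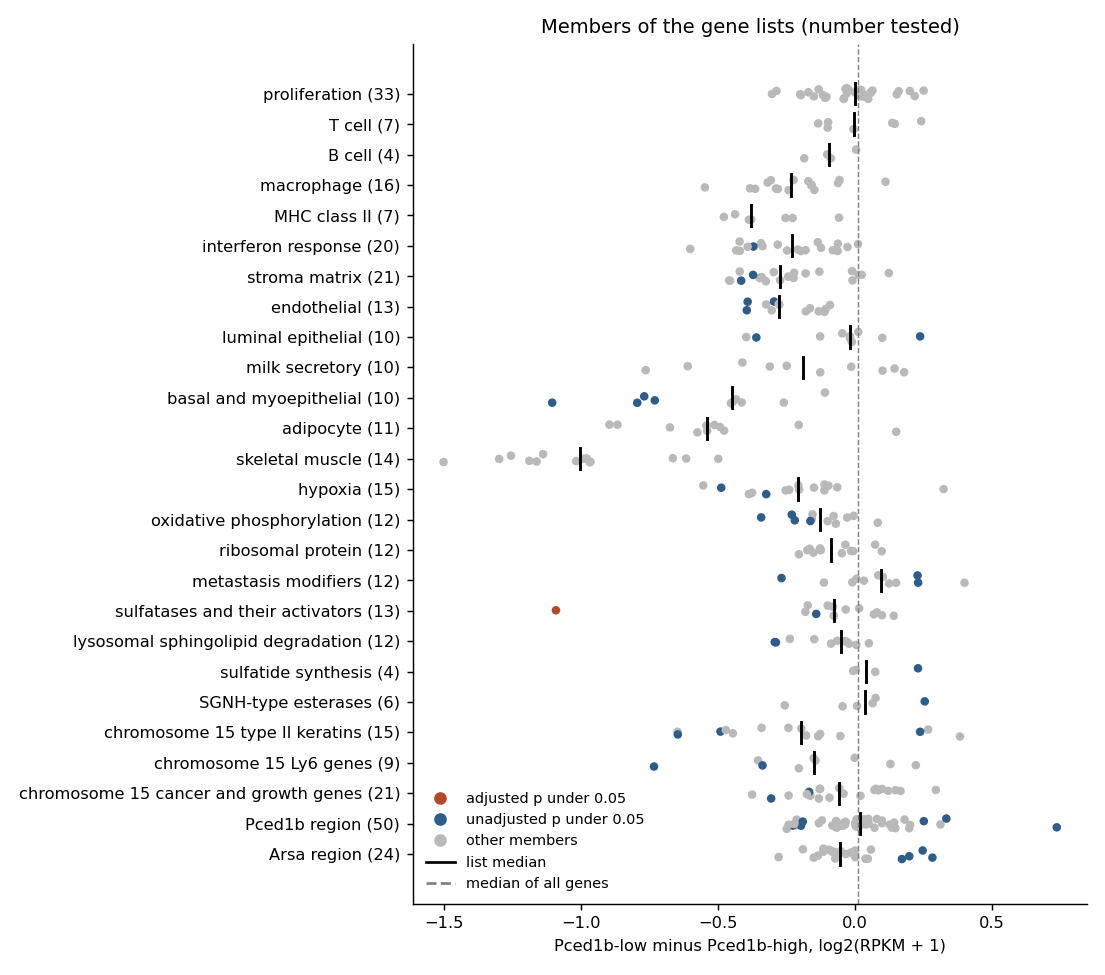
Difference between classes (low minus high, log2(RPKM + 1), horizontal axis) for each tested member of the gene lists (vertical axis, number tested in brackets), with the list median as a black bar and the median of all genes as a dashed line. Arsa, in the sulfatase list, is the only passing member, and the medians of the basal, adipocyte and skeletal muscle lists lie at -0.45, -0.54 and -1.01.

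The makeup of the tumour pieces was described with marker lists, none of which had a passing member in limma. All 10 tested basal and myoepithelial genes were lower in low tumours by sign, beside 47.1% of all genes, and 4 had an unadjusted p under 0.05. Those 4 were the contractile genes Acta2, Myh11, Cnn1 and Myl9. The same lean appeared in other lists: 14 of 14 skeletal muscle, 7 of 7 MHC class II and 15 of 16 macrophage genes. It also appeared in 19 of 20 interferon, 14 of 15 hypoxia, 10 of 11 adipocyte and 18 of 21 stroma genes. Oxidative phosphorylation had 11 of 12 genes lower. Of proliferation, T cell and luminal epithelial genes, 16 of 33, 4 of 7 and 7 of 10 were lower, and of metastasis modifiers 3 of 12. Acta2, smooth muscle actin, was 11.8, 18.5 and 61.9 RPKM at the lowest, median and highest in low tumours and 15.1, 46.2 and 177.8 RPKM in high tumours, a difference of -1.11 ± 0.29 (SE) with adjusted p = 0.291 by limma. The ranges overlapped, with 16 high tumours under the highest low tumour. That tumour came from animal 3540, and the next low tumour had 31.6 RPKM. Without animal 3540 the Acta2 difference was -1.27, with adjusted p = 0.0676 by limma. The basal keratin genes Krt5 and Krt14 differed by -0.45 and -0.11, with unadjusted limma p of 0.112 and 0.659. Which cells of the pieces the contractile transcripts came from was not tested. The summed level of the basal list ranged from 99.8 to 392 RPKM in low and from 151 to 587 RPKM in high tumours, with none of its markers at 0 throughout.

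Markers of other tissue in the pieces varied widely between the tumours of each class. The summed level of 14 skeletal muscle genes ranged from 26.2 to 3446 RPKM in low and from 30.4 to 18086 RPKM in high tumours, and that of the adipocyte list from 92.3 to 925 RPKM and from 61.0 to 3614 RPKM. Of these lists 0 members passed in limma and 0 had an unadjusted p under 0.05. All 13 endothelial genes were lower in low tumours by sign, with a median of -0.28, 0 passing and 3 at an unadjusted p under 0.05. Medians were -0.38 for 7 MHC class II genes, -0.23 for 16 macrophage genes, -0.27 for 21 stroma genes, -0.01 for 7 T cell genes and 0.00 for 33 proliferation genes, with 0 of each passing in limma and 0, 0, 2, 0 and 0 at an unadjusted p under 0.05. With the proliferation, stroma, T cell and milk scores as covariates, 5 genes passed in limma: Arsa, Cerk, Hnrnph2, Cldn2 and Zfp462. No model held a score of the basal, muscle, adipocyte, endothelial, macrophage or MHC class II genes, and their part in the differences was not tested.

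Of 12 tested genes of oxidative phosphorylation, 0 passed in limma and 4 had an unadjusted p under 0.05, all lower in low tumours, beside 4.46% of all genes at that level and direction, with a median of -0.13: Cox5a had means of 123 and 156 RPKM in low and high tumours, and Atp5b 630 and 740 RPKM. Of 12 tested metastasis modifiers, genes named for effects on spread in mouse crosses or other models, 0 passed in limma and 3 had an unadjusted p under 0.05, with a median of 0.09. Cd82 differed by -0.27, Arid4b by 0.23 and Luc7l by 0.23, and without animal 4150 the unadjusted limma p of Luc7l moved from 0.0406 to 0.162. Of 15 tested hypoxia genes, 0 passed in limma and 2 had an unadjusted p under 0.05, with a median of -0.21, led by the glucose transporter gene Slc2a1 with means of 38.3 and 54.1 RPKM in low and high tumours. Medians were -0.23 for 20 interferon genes, -0.10 for 4 B cell genes, -0.02 for 10 luminal epithelial genes, -0.19 for 10 milk genes and -0.09 for 12 ribosomal protein genes, with 0 of each passing in limma and 1, 0, 2, 0 and 0 at an unadjusted p under 0.05. The 2 luminal genes differed in opposite directions, Krt18 by 0.24 and Esr1 by -0.36.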

How the data were processed

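Poly-A RNA of 30 tumours was sequenced on Illumina instruments (per the labels' protocols). For each RefSeq transcript the authors deposited a value taken here as RPKM; the unit was judged from the values, since the header names none. Per the submitters' processing notes, the software was CASAVA 1.7.0. No build, annotation or strand setting was given in the sources used here.

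Transcripts were named from RefSeq (27157) and GENCODE (146) tables, and 599 without a name (1.61% of RPKM) and 904 small RNAs were left out. The transcript with the highest mean stood for each of 20834 genes. Gene order came from GRCm38.p6. Depth was estimated from the steps between low values, of which 48.6% to 67.2% came near whole reads (tolerance 0.12), so no count test was run. Pced1b chose the classes. All other genes except Amigo2 with a mean of 1 RPKM or more entered limma 3.58.1 (R 4.3.3) with trend on log2(RPKM + 1), two-sided, Benjamini-Hochberg adjusted at 0.05. The p-values measure the spread between animals.

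Named genes were the 20 chromosome 15 genes with the smallest p, the 5 on each side of Pced1b, the 10 trans genes per direction, and up to 4 members per list, predicted genes passed over; 2 of the 20 are not reported here. Members of lists at an unadjusted p under 0.05, Mettl7a2 and Adamts20 were added after their values were seen. The classes, the lists and Arsa were chosen with earlier results of these data known. Alternatives changed the pseudocount, filter, normalization, transcript choice, covariates, tumours and threshold. On simulated data of 13609 genes the fit recovered 20.9%, 74.6% and 97.0% of genes changed by 0.25, 0.5 and 1 on the log2 scale, and 5.88% of its calls were false. In that simulation genes varied independently, and more genes were changed than passed in the tumours. These shares therefore need not hold for the tumour comparison.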

Additional observations from a re-analysis of the deposited data

Results flagged for a closer look

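For 13 of 77 genes named above, 1 tumour of the 10 in the low class stood apart from the rest by Dixon's test. Chance meets that test in about 1 of 20 groups of independent, normally distributed values. The test used RPKM without a log, and the genes share animals, so that rate need not hold here. Animal 4150 was the extreme tumour for 6 of the 13 genes. It was the highest low tumour for Chkb, with 83.3 RPKM beside 40.3 in the next tumour, for Hdac10 (27.3 beside 17.9), Luc7l (94.2 beside 60.4) and Pced1a (12.3 beside 6.60). It was the lowest for Ano6, with 4.78 RPKM beside 12.7, and for Arsb, with 3.6 beside 9.22.

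Animal 3654 was the highest low tumour for 4 chromosome 15 genes: Apobec3 with 86.5 RPKM beside 39.3 in the next tumour, Cbx6 with 28.7 beside 16.8, Npcd with 7.74 beside 3.88, and Gxylt1 with 10.6 beside 7.54. Acta2 was highest in animal 3540, with 61.9 RPKM beside 31.6. Plau was highest in animal 4459, with 13.2 RPKM beside 10.1, and Ly6c2 in animal 4038, with 2.32 RPKM beside 0.863.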

How the results depend on the processing

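No paired analysis was possible because the tumours form 1 group in the labels, whose replicate numbers are accession order only. Arsa kept its direction under all 14 alternatives and its call under 13, the exception being shallow libraries only (-1.03). Over all genes 3 passed as reported, and the count was 6 with no filter, 5 with the proliferation, stroma, T cell and milk scores as covariates, 1 in deep libraries and 0 in shallow libraries, and 8 with animal 4378 counted as low, which was chosen after seeing the data. On chromosome 15 the 2 became 4 with no filter, 1 in deep and 0 in shallow libraries, and 5 with animal 4378 as low. On the other chromosomes the 1 became 2 with a pseudocount of 0.1, no filter, or a minimum of 5 RPKM, 3 with the scores or with animal 4378 as low, and 0 with insert size as a covariate, in deep libraries, in shallow libraries, without the 2 tumours on each side nearest the threshold, and with a slope on Pced1b. Those limma fits with 0 calls had 1169, 1495, 722, 1019 and 1596 trans genes at an unadjusted p under 0.05, and the shallow fit had 771 over all genes and 49 on chromosome 15. The cause was not tested, except that the fits within a depth class hold fewer tumours.

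Leaving out each tumour in turn gave 2 to 7 calls over all genes, 2 to 3 on chromosome 15 and 0 to 5 on the other chromosomes. Over all genes there were 5 without animal 4036 or 4438 and 7 without 4144 or 4461. On the other chromosomes there were 0 without 3654, 4016, 4150, 4315 or 4459 (1033, 1399, 1319, 1193 and 1476 at an unadjusted p under 0.05 in limma), 2 without 3540, 4030, 4036, 4262, 4492, 4547 or 4638, 3 without 4438, 4 without 4144 and 5 without 4461.

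Genes that were not called and whose difference lay near 0 changed sign in places. In deep libraries these were Ano6 (0.0765), Rpap3 (0.0812), Rapgef3 (-0.0606), Slc48a1 (0.0017) and Pced1a (-0.0614), and in shallow libraries Arid2 (-0.0294), Scaf11 (-0.147), Hdac7 (0.0335) and Krt8 (0.0448). With the scores they were Ano6 (0.06998), Rpap3 (0.0137), Hdac7 (0.0315) and Pced1a (-0.0112), and without the tumours nearest the threshold Ano6 (0.0867), Rpap3 (0.0446) and Pced1a (-0.0248). On the slope they were Ano6 (0.0035), Slc38a2 (0.0189), Rpap3 (0.0017) and Pced1a (-0.0119). Slc38a2 was 0.0021 with insert size and 0.0206 with animal 4378 as low. Leaving out each tumour gave -0.086 to 0.129 for Ano6, -0.0616 to 0.0613 for Rpap3, -0.0048 to 0.065 for Rapgef3, -0.0863 to 0.00695 for Hdac7 and -0.0188 to 0.107 for Pced1a. Depth is known only as an estimate, so low values carry no interval.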
